A study of Homo sapiens with 10 samples.

Results

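The cholesterol genes described here are 30 genes of cholesterol synthesis, sterol sensing, uptake and intracellular transport, storage, and efflux. They were listed by gene symbol, by a rule that uses no measured value, although the list was drawn up with earlier results of these data known. A probe set annotated to a single gene was found for 28 of the 30, out of 22432 genes measured in each table. The 28 were 16 of 18 synthesis enzymes, 4 sterol-sensing genes, 4 transport and storage genes, and 4 genes of efflux and its control by the liver X receptor (LXR). FDFT1 and CYP51A1, both synthesis enzymes, had no probe set annotated to them alone and have no value here.

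Values are log2 signals of total RNA on Affymetrix arrays from 786-O, an established human clear-cell renal carcinoma line that lacks functional VHL. In the first table, cells carried ZHX2 hairpin 44 (2 arrays), ZHX2 hairpin 45 (2 arrays) or a scrambled hairpin (2 arrays). In the second table, cells carried p65 shRNA (2 arrays) or control shRNA (2 arrays), where p65 is the NF-κB subunit encoded by RELA. All 5 groups were infected with lentivirus, selected in puromycin at 2 ug/ml and grown in serum-containing medium, which itself supplies lipoprotein cholesterol. The labels give no time after infection and do not say whether the 2 arrays of a group came from separate infections, so p-values measure the spread between these arrays, which may be technical. The p65 shRNA and control shRNA titles end in a number that could mark a replicate or a hairpin, and it is read here as a replicate. Fewer cells expressing a gene and less of its RNA per cell cannot be told apart in these bulk samples.

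As background, cells hold cholesterol steady through the transcription factor SREBP2, encoded by SREBF2. When sterols are low, SCAP escorts SREBP2 from the endoplasmic reticulum to the Golgi, where it is cut and freed to switch on the synthesis enzymes and its own gene, and when sterols are high the INSIG proteins hold SCAP back. When sterols are abundant, oxysterols activate LXR, which raises the efflux pumps ABCA1 and ABCG1 and the ubiquitin ligase MYLIP, which removes lipoprotein receptors. Clear-cell renal carcinoma is known for its stores of lipid, cholesteryl ester among them.

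SREBP2 sites in the promoters of synthesis genes typically lie beside a CCAAT box, which binds NF-Y, or a GC box, which binds Sp1. RefSeq promoters of GRCh38.p14, each running from 250 bases before to 50 bases after a gene's start, were matched by symbol for 26 of the 30 genes (35 windows). Motifs were searched on both strands. The sterol regulatory element core TCACNCCAC was found in 1 of the 26 genes, SREBF2, compared with 1.39% of the 27305 genes with a promoter in the table. CCAAT was found in 20 of the 26 genes (76.9%), compared with 39.7% of all genes. GGGCGG was found in 24 of the 26 (92.3%), compared with 48.3% of all genes. The LXR motif, AGGTCA repeated directly with 4 free bases between, was in 0 of the 26 genes and in 0.0256% of all genes. A match describes these letters in this window and is not a measured binding site.

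The 250 bases before the start of SREBF2 are shown because they hold the only match to the sterol regulatory element core, at bases -133 to -125 from the start, with a CCAAT box on the other strand at -106 to -102. Those of HMGCS1, LSS, MSMO1 and INSIG1 are shown because these genes carry the largest differences over both ZHX2 hairpins among the 28 measured cholesterol genes, and they were chosen after their values were seen. Only windows holding CCAAT or TCACNCCAC are shown. HMGCS1 has a second promoter window that holds neither and was left out for that reason. Each runs 5′ to 3′ on the gene's own strand. Capitals mark TCACNCCAC and CCAAT, with CCAAT read as ATTGG where it lies on the other strand. The windows are SREBF2 at chr22:41832855-41833104 on the plus strand, HMGCS1 at chr5:43313413-43313662 on the minus strand, LSS at chr21:46228775-46229024 on the minus strand, MSMO1 at chr4:165327419-165327668 on the plus strand, and INSIG1 at chr7:155297628-155297877 on the plus strand.
SREBF2: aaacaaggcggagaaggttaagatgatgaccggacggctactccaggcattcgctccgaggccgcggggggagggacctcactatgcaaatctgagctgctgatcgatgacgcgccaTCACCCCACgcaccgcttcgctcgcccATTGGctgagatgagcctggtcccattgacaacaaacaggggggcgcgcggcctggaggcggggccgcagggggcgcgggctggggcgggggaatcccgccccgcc
HMGCS1: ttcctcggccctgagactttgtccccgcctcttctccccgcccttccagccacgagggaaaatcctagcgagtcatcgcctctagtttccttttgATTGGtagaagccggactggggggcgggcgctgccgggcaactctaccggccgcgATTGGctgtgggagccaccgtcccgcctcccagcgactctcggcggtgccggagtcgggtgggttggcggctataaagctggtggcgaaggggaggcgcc
LSS: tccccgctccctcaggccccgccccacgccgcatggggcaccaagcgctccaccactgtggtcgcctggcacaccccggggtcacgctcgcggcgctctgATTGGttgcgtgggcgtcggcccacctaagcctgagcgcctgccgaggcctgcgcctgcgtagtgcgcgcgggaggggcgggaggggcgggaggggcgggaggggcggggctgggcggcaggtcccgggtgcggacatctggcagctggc
MSMO1: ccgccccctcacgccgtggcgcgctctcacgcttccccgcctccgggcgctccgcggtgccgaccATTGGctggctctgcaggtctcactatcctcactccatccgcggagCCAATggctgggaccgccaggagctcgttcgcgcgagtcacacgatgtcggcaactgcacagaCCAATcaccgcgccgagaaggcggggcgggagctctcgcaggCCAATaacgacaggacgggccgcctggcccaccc
INSIG1: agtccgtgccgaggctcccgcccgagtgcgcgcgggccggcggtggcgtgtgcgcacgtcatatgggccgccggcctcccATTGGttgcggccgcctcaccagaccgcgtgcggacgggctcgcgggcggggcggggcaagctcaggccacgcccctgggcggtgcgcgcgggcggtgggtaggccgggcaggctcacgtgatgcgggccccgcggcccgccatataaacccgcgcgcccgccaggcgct
MSMO1 holds 4 CCAAT boxes, HMGCS1 holds 2, and the other three windows hold 1 each.

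Both knockdowns were checked in their own tables. ZHX2 had log2 signals of 9.35 and 9.38 with hairpin 44, and hairpin 45 gave 8.93 and 9.02, against 10.58 and 10.43 on the scrambled arrays. The mean over both hairpins was 2.52-fold lower (limma adjusted p = 0.00105). RELA had log2 signals of 5.04 and 5.28 with p65 shRNA, against 7.64 and 7.67 with control shRNA, a 5.65-fold difference. The 2 arrays of a group correlated at 0.993 to 0.995 in the ZHX2 table and at 0.985 to 0.987 in the p65 table over all genes. The kidney tumour label was checked against 8 genes listed as renal epithelial markers, although VIM among them is not specific to epithelium. Their mean signals ranked from the 48.3rd (CDH16) to the 99.7th (VIM) percentile of genes in the ZHX2 table, with PAX8 at the 99.6th. Such ranks across probe sets are only a rough guide. The 7 leukocyte markers ranked from the 5.47th (PTPRC) to the 97.2nd (CD68), with CSF1R next at the 46.2nd, the 8 endothelial markers from the 16.5th to the 56th, the 6 fibroblast markers from the 3.33rd to the 50.4th, and the 6 hepatocyte markers from the 6.85th to the 68.8th. After ZHX2 knockdown 5 of the 8 renal markers were lower, CDH6 falling by 1.92 on the log2 scale, and 1 was higher, beside 6.41% and 11.9% of all genes. Their summed linear signal ranged from 12013 to 12058 with hairpin 44 and from 10340 to 10409 with hairpin 45, against 14163 to 14657 on the scrambled arrays. Among the other lists, over both hairpins, CD68 fell by 0.46 and the fibroblast marker LUM by 0.95 (adjusted p = 0.00933 and 0.00316), and 0 endothelial and 0 hepatocyte markers passed. With hairpin 45 alone, 1 of the 6 hepatocyte markers passed lower and 0 higher, beside 7.11% and 13.0% of all genes. The summed hepatocyte signal was 575 to 582 with hairpin 44 and 481 to 496 with hairpin 45, against 569 to 596 on the scrambled arrays. The summed leukocyte signal was 1718 to 1766 with hairpin 44 and 1720 to 1743 with hairpin 45, against 2228 to 2388 on the scrambled arrays. Most of that sum is CD68, and over both hairpins 5 of the 7 leukocyte markers lay below 0 and 2 above. The summed fibroblast signal was 411 to 426 with hairpin 44 and 401 to 409 with hairpin 45, against 517 to 525 on the scrambled arrays. The part of these marker changes in the results below was not tested.

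The ZHX2 knockdown comparison asks which of these genes depend on ZHX2, a zinc-finger and homeobox protein. Over the mean of both hairpins against scrambled, 10 of the 28 measured genes were lower and 1 was higher at an adjusted p under 0.05, beside 6.41% of all genes lower and 11.9% of all genes higher. The 10 were the synthesis enzymes HMGCS1, SQLE, LSS, TM7SF2, MSMO1, HSD17B7 and DHCR7, the sensing genes INSIG1 and SREBF2, and the transport protein STARD4, and the 1 that rose was SOAT1. The differences ran from -0.73 (HMGCS1) to 0.44 (SOAT1), with a median of -0.20 over the 28 genes, compared with -0.00425 over all genes. All hairpin arrays lay below both scrambled arrays for 14 of the 28 genes and above both for 1, beside 16.4% and 21.9% of all genes. Among the 4 efflux and LXR genes, 0 passed the test, with ABCA1 at an adjusted p of 0.0597 and an unadjusted p under 0.05 for that gene alone, although ABCA1 passed with hairpin 45 alone, and over both hairpins when the variance was allowed to follow signal intensity (an intensity trend). The counts lean on single arrays: with any 1 array left out, fewer of the 28 genes passed, and fewer of all genes.

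The first committed steps of the pathway make HMG-CoA and mevalonate. ACAT2, which joins 2 acetyl-CoA molecules, had log2 signals of 7.92 and 7.89 with hairpin 44, and hairpin 45 gave 7.90 and 7.81, against 8.18 and 7.92 on the scrambled arrays. Its groups touched, and its mean difference of -0.17 did not pass (adjusted p = 0.272). HMGCS1, which makes HMG-CoA, had 7.91 and 8.01 with hairpin 44, and hairpin 45 gave 8.02 and 7.98, against 8.73 and 8.69 on the scrambled arrays. All 4 hairpin arrays lay below both scrambled arrays, and HMGCS1 fell by 0.73 ± 0.07 (SE) on the log2 scale, or 1.65-fold (adjusted p = 0.00281).

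The next enzymes turn mevalonate into the isoprenoid units and join them. MVK and PMVK, the mevalonate kinases, differed by -0.0015 and 0.14 on the log2 scale and neither passed (adjusted p = 0.991 and 0.321). MVD, which makes isopentenyl diphosphate, had 8.57 and 8.37 with hairpin 44, and hairpin 45 gave 8.24 and 8.19, against 8.65 and 8.59 on the scrambled arrays. The hairpin 45 arrays were the lower of the hairpin arrays, MVD fell with hairpin 45 (-0.41 ± 0.09, adjusted p = 0.0308), and the mean over both hairpins gave -0.28 with an adjusted p of 0.0654. IDI1, the isomerase of the isoprenoid units, differed by -0.18 and did not pass. FDPS, the farnesyl diphosphate synthase at the branch point to other isoprenoids, differed by -0.25 (adjusted p = 0.0711), and a second FDPS probe set gave -0.07 (adjusted p = 0.665). Between HMGCS1 and SQLE, 0 of the 5 enzymes measured passed over both hairpins in the plain limma test, MVD and FDPS had an unadjusted p under 0.05, and both passed when the variance was allowed to follow signal intensity (adjusted p = 0.0123 and 0.0265).

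The committed sterol steps included 3 of the clearest falls. SQLE, the squalene epoxidase, had 9.46 and 9.45 with hairpin 44, and hairpin 45 gave 9.37 and 9.38, against 9.82 and 9.85 on the scrambled arrays. LSS, which closes the sterol rings to form lanosterol, had 8.70 and 8.76 with hairpin 44, and hairpin 45 gave 8.51 and 8.48, against 9.28 and 9.21 on the scrambled arrays. MSMO1, which removes methyl groups from lanosterol products, had 10.04 and 10.04 with hairpin 44, and hairpin 45 gave 10.08 and 10.29, against 10.71 and 10.71 on the scrambled arrays. The groups did not overlap for any of these 3 genes. SQLE fell by 0.42 ± 0.06 on the log2 scale (adjusted p = 0.00865), LSS by 0.63 ± 0.07 (adjusted p = 0.00364) and MSMO1 by 0.60 ± 0.08 (adjusted p = 0.00709), that is 1.34-fold, 1.55-fold and 1.51-fold. With any 1 of the 6 arrays left out, all 3 and HMGCS1 still passed, with adjusted p-values of 0.0151 to 0.0472.

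Results were mixed for the other measured enzymes that act after LSS. HSD17B7, a sterol ketoreductase, had 6.77 and 6.61 with hairpin 44, and hairpin 45 gave 6.45 and 6.57, against 7.27 and 7.03 on the scrambled arrays, and fell by 0.55 ± 0.10 (adjusted p = 0.0161). TM7SF2, a sterol reductase, fell by 0.36 ± 0.09 (adjusted p = 0.042), and DHCR7, which makes cholesterol from 7-dehydrocholesterol, fell by 0.27 ± 0.07 (adjusted p = 0.0474). Their hairpin arrays lay below their scrambled arrays, but the calls depended on single arrays. DHCR7 lost its call without any 1 of the 6 arrays (adjusted p = 0.0838 to 0.135), TM7SF2 without any except hairpin 44 replicate 1 (adjusted p up to 0.176), and HSD17B7 without scrambled replicate 1, hairpin 44 replicate 2 or hairpin 45 replicate 1 (adjusted p up to 0.0618). NSDHL, EBP and SC5D, which also act after LSS, differed by 0.09, -0.06 and -0.10 and did not pass.

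**Figure D1:**
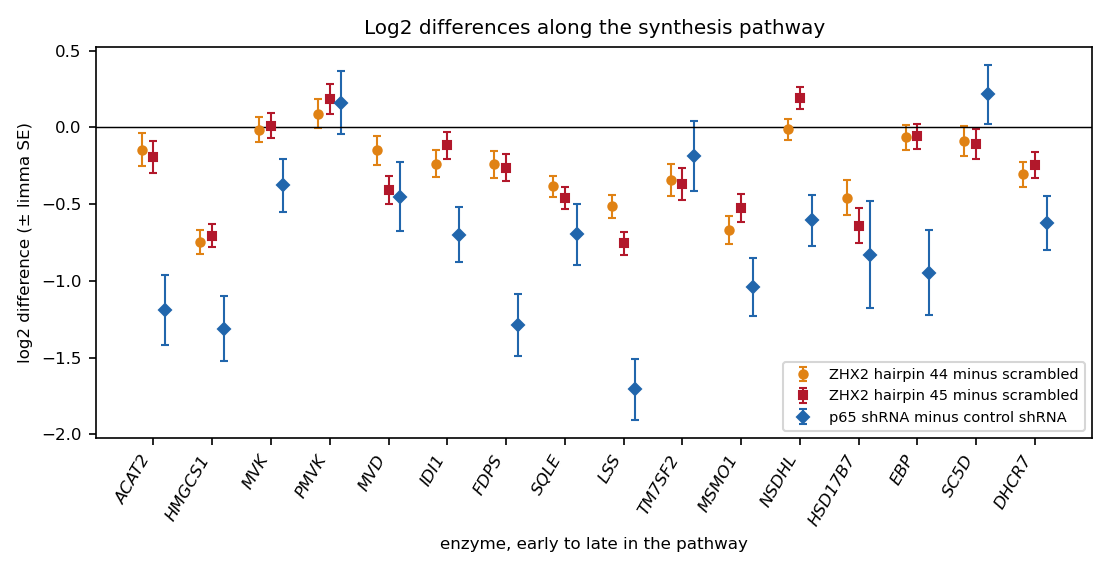
Log2 differences of the 16 measured synthesis enzymes, ordered from early to late in the pathway, for ZHX2 hairpin 44 and ZHX2 hairpin 45 against scrambled and for p65 shRNA against control shRNA. Points are limma estimates from 2 arrays a group and bars are their standard errors. HMGCS1, SQLE, LSS and MSMO1 lie below 0 in all 3, and LSS reaches -1.71 with p65 shRNA.

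Of the 4 sensing genes, 2 fell. INSIG1, which retains SCAP and is itself an SREBP2 target, had 10.76 and 10.82 with hairpin 44, and hairpin 45 gave 10.58 and 10.56, against 11.34 and 11.40 on the scrambled arrays. It fell by 0.69 ± 0.06 on the log2 scale, 1.62-fold (adjusted p = 0.00283). SREBF2, which encodes SREBP2, had 9.14 and 9.17 with hairpin 44, and hairpin 45 gave 9.01 and 9.01, against 9.48 and 9.50 on the scrambled arrays. It fell by 0.41 ± 0.06, 1.33-fold (adjusted p = 0.00935). In both genes the scrambled arrays were the highest and the hairpin 45 arrays the lowest, and both calls held with any 1 array left out (adjusted p up to 0.0463). INSIG2, a second retention protein, and SCAP differed by 0.01 and -0.09 on the log2 scale and did not pass (adjusted p = 0.952 and 0.389).

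Transport and storage genes went both ways. STARD4, which carries cholesterol between membranes, had 8.24 and 8.27 with hairpin 44, and hairpin 45 gave 8.04 and 7.98, against 8.58 and 8.45 on the scrambled arrays. It fell by 0.38 ± 0.07 (adjusted p = 0.0175), a call lost without any 1 array except scrambled replicate 2 (adjusted p up to 0.0648). NPC1, which moves cholesterol out of lysosomes, had 11.15 and 11.26 with hairpin 44, and hairpin 45 gave 10.94 and 10.99, against 11.41 and 11.26 on the scrambled arrays, and its mean difference was -0.25 (adjusted p = 0.0806). SOAT1, which esterifies cholesterol for storage, had 10.40 and 10.41 with hairpin 44, and hairpin 45 gave 10.44 and 10.38, against 9.97 and 9.97 on the scrambled arrays. The groups were far apart relative to their spread, and SOAT1 rose by 0.44 ± 0.06, 1.35-fold (adjusted p = 0.00834). That rise passed with any 1 array left out (adjusted p = 0.0312 to 0.0434). NPC1L1, the intestinal uptake protein, had a dim signal at the 30.6th percentile of the table and differed by 0.02.

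Of the 4 efflux and LXR genes, 2 were below 0 and 2 above 0 over both hairpins, with a median of -0.03. ABCA1, the main cholesterol efflux pump, had 10.86 and 10.89 with hairpin 44, and hairpin 45 gave 10.37 and 10.40, against 10.89 and 10.82 on the scrambled arrays. The hairpin 44 arrays overlapped the scrambled arrays, and only the hairpin 45 arrays were low, so ABCA1 differed by 0.02 with hairpin 44 (adjusted p = 0.912) and fell by 0.47 ± 0.07 with hairpin 45 (adjusted p = 0.0101). ABCG1, a second efflux pump, had a dim signal at the 25.9th percentile and differed by -0.18 over both hairpins. MYLIP, the receptor-degrading ligase, and NR1H3, which encodes LXR alpha, differed by 0.18 and 0.12, with adjusted p-values of 0.342 and 0.287.

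**Figure D2:**
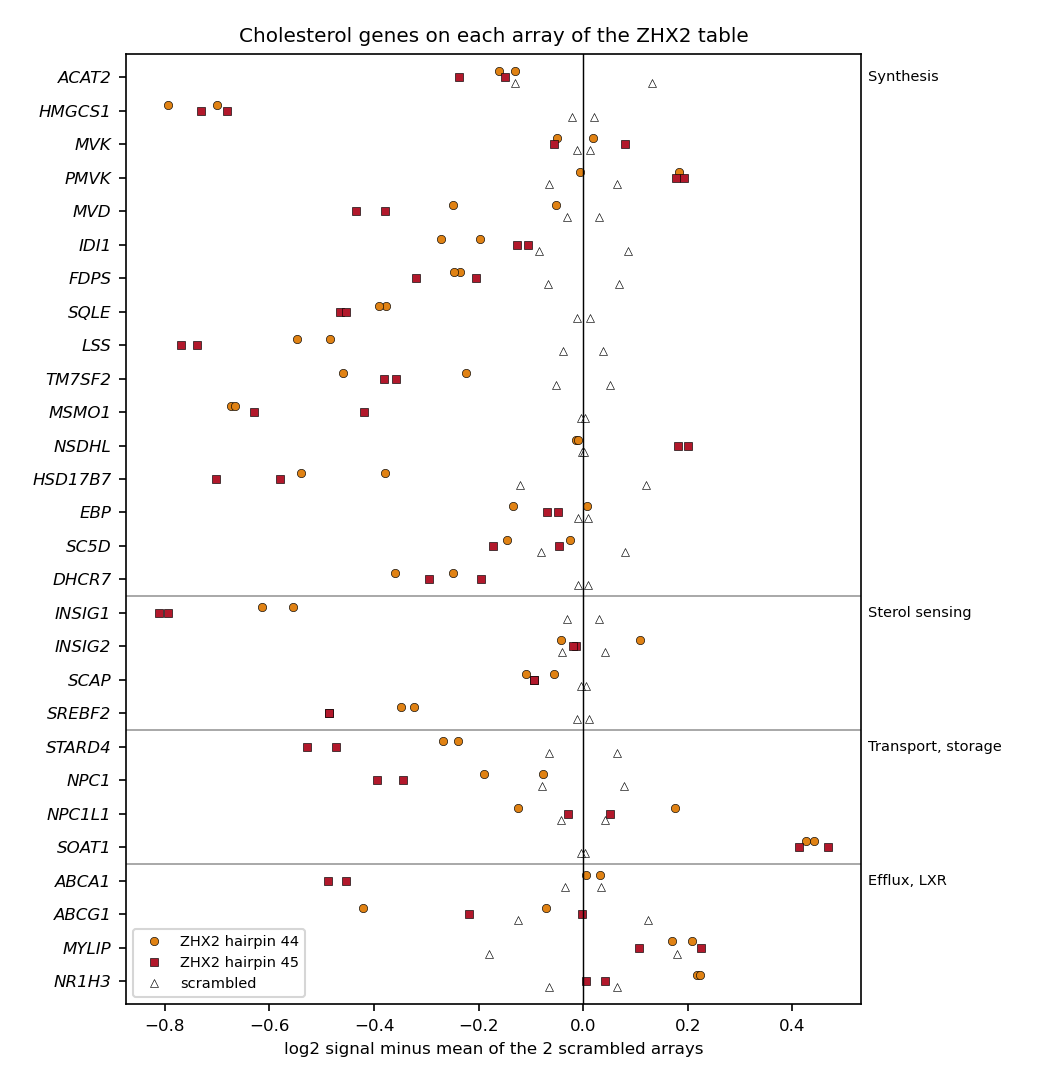
Each cholesterol gene on each array of the ZHX2 table, as log2 signal minus the mean of the 2 scrambled arrays, with 2 points each for ZHX2 hairpin 44, ZHX2 hairpin 45 and scrambled. Synthesis genes such as HMGCS1, LSS and MSMO1 and the sensing genes INSIG1 and SREBF2 lie to the left with both hairpins, SOAT1 lies to the right with both, and ABCA1 lies to the left with hairpin 45 alone.

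The hairpins were also tested singly, sharing the scrambled arrays. With hairpin 44, 6 of the 28 genes were lower (HMGCS1, SQLE, LSS, MSMO1, INSIG1 and SREBF2) and SOAT1 was higher, beside 2.84% of all genes lower and 4.81% higher. With hairpin 45, 11 were lower and SOAT1 was higher, beside 7.11% and 13.0% of all genes. The 11 were HMGCS1, MVD, SQLE, LSS, MSMO1, HSD17B7, INSIG1, SREBF2, STARD4, NPC1 and ABCA1. The hairpin 44 count fell with any 1 of the 6 arrays left out, and so did the hairpin 44 count over all genes. The hairpin 45 count fell most without a hairpin 45 array, and so did the hairpin 45 count over all genes. ZHX2 itself was 2.88-fold lower with hairpin 45 and 2.2-fold lower with hairpin 44.

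Tested against each other, hairpin 45 and hairpin 44 gave 0 of 28 cholesterol genes at an adjusted p under 0.05, beside 0.397% of all genes. The largest difference was in ABCA1, -0.49 ± 0.07 on the log2 scale (adjusted p = 0.0832), followed by MVD at -0.26, STARD4 at -0.25, NPC1 and LSS at -0.24 and INSIG1 at -0.22, all lower with hairpin 45. With an intensity trend in the variance, which lets bright probe sets carry a smaller expected spread, ABCA1 (adjusted p = 0.000145), INSIG1 (0.0166) and NPC1 (0.0354) were lower and NSDHL (0.0302) was higher with hairpin 45, beside 6.54% of all genes in either direction. At an unadjusted p under 0.05, 7 of the 28 were lower and 1 was higher, beside 6.74% and 8.35% of all genes. NSDHL had 10.25 and 10.27 with hairpin 45, against 10.06 and 10.06 with hairpin 44.

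With p65 shRNA, 22 of the 28 genes lay below 0, with differences from -1.71 (LSS) to 0.73 (INSIG2). The plain test called 0 of the 28 genes and 0 of all 22432 genes (0.0%) at an adjusted p under 0.05, RELA included (adjusted p = 0.0733). At an unadjusted p under 0.05, 13 of the 28 were lower and 1 was higher, beside 7.95% of all genes lower and 6.39% higher. With an intensity trend, 10 of the 28 passed lower (ACAT2, HMGCS1, FDPS, SQLE, LSS, MSMO1, NSDHL, DHCR7, INSIG1 and SREBF2) and INSIG2 passed higher, beside 2.49% and 1.37% of all genes. Both p65 shRNA arrays lay below both control arrays for 20 of the 28 genes and above them for INSIG2 and SOAT1, beside 22.7% and 23.4% of all genes. The median difference was -0.56 over the 28 genes and -0.70 over the 16 synthesis enzymes, compared with 0.00686 over all genes. Among the markers of other cell types, SERPINA1, a hepatocyte marker, was the only 1 of 27 to pass with the trend (-1.50, adjusted p = 0.0253), and the summed linear signal of the 6 hepatocyte markers was 18.02 to 18.05 with p65 shRNA, against 27.5 to 28.4 with control shRNA. The sum of 7 leukocyte markers was 369 to 399 with p65 shRNA, against 286 to 306 with control shRNA, and most of it is CD68, which differed by 0.41 and did not pass, while 4 of the 7 lay below 0. The sum of 8 renal epithelial markers was 2014 to 2106 with p65 shRNA, against 1730 to 2153 with control shRNA, and 0 of them passed. The part of these markers in the results was not tested. With the trend, few or no cholesterol genes passed without a p65 shRNA array, and the calls over all genes fell as well. Without a control shRNA array, nearly as many cholesterol genes passed with the trend, and the calls over all genes rose.

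Among the enzymes, LSS had log2 signals of 5.49 and 5.84 with p65 shRNA, against 7.45 and 7.30 with control shRNA. Its difference of -1.71 ± 0.20, 3.27-fold lower, was the largest of the 28 genes (adjusted p = 0.0733, and 0.00306 with the intensity trend). HMGCS1 had 6.83 and 6.88 with p65 shRNA, against 8.40 and 7.95 with control shRNA, a difference of -1.31 ± 0.21 (adjusted p = 0.106, and 0.00592 with the trend). The groups of both genes were more than 1 log2 unit apart between the nearest arrays. FDPS had 3.79 and 4.17 with p65 shRNA, against 5.20 and 5.32 with control shRNA. ACAT2 had 5.75 and 6.26 with p65 shRNA, against 7.22 and 7.16 with control shRNA. MSMO1 had 8.87 and 8.55 with p65 shRNA, against 9.77 and 9.74 with control shRNA. These 3 enzymes were 2.44-fold, 2.28-fold and 2.06-fold lower with p65 shRNA, with adjusted p-values of 0.1, 0.126 and 0.121 in the plain test and of 0.0214, 0.0145 and 0.00531 with the trend.

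SQLE, DHCR7 and NSDHL differed by -0.70, -0.62 and -0.61 and passed with the trend alone (adjusted p = 0.0363, 0.0336 and 0.039). EBP, HSD17B7, IDI1, MVD and MVK lay lower on both p65 shRNA arrays, with differences of -0.95 to -0.38, without passing either test. The HSD17B7 probe set was dim in this table (29.8th percentile), and its 2 p65 shRNA arrays were far apart at 1.74 and 0.73, against 2.03 and 2.11 with control shRNA. PMVK, SC5D and TM7SF2 had overlapping groups.

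The 2 INSIG genes, whose products both hold back SCAP, lay on opposite sides of 0 with p65 shRNA. INSIG1 had 9.39 and 9.12 with p65 shRNA, against 10.00 and 9.86 with control shRNA, a difference of -0.67 ± 0.19 (adjusted p = 0.224, and 0.0222 with the trend). INSIG2 had 7.0 and 6.78 with p65 shRNA, against 6.02 and 6.30 with control shRNA, a difference of 0.73 ± 0.19 (adjusted p = 0.209, and 0.0499 with the trend). SREBF2 had 6.74 and 6.63 with p65 shRNA, against 7.26 and 7.28 with control shRNA, a difference of -0.58 ± 0.17 (adjusted p = 0.229, and 0.0483 with the trend). SCAP differed by -0.15 and did not pass.

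Of the transport, storage and efflux genes, 0 of 8 passed with the trend. STARD4 differed by -0.68 (adjusted p = 0.329), with control arrays at 6.66 and 7.31. SOAT1 had 8.65 and 8.53 with p65 shRNA, against 8.09 and 8.49 with control shRNA, and its difference of 0.30 did not pass (adjusted p = 0.574). ABCA1 had 8.34 and 8.39 with p65 shRNA, against 9.33 and 8.47 with control shRNA, so its difference of -0.54 (adjusted p = 0.501) was smaller than the distance between its control arrays. MYLIP differed by -0.46, NPC1 by -0.19, NR1H3 by 0.07, NPC1L1 by -0.04 and ABCG1 by 0.0011, and none of these 5 passed.

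**Figure D3:**
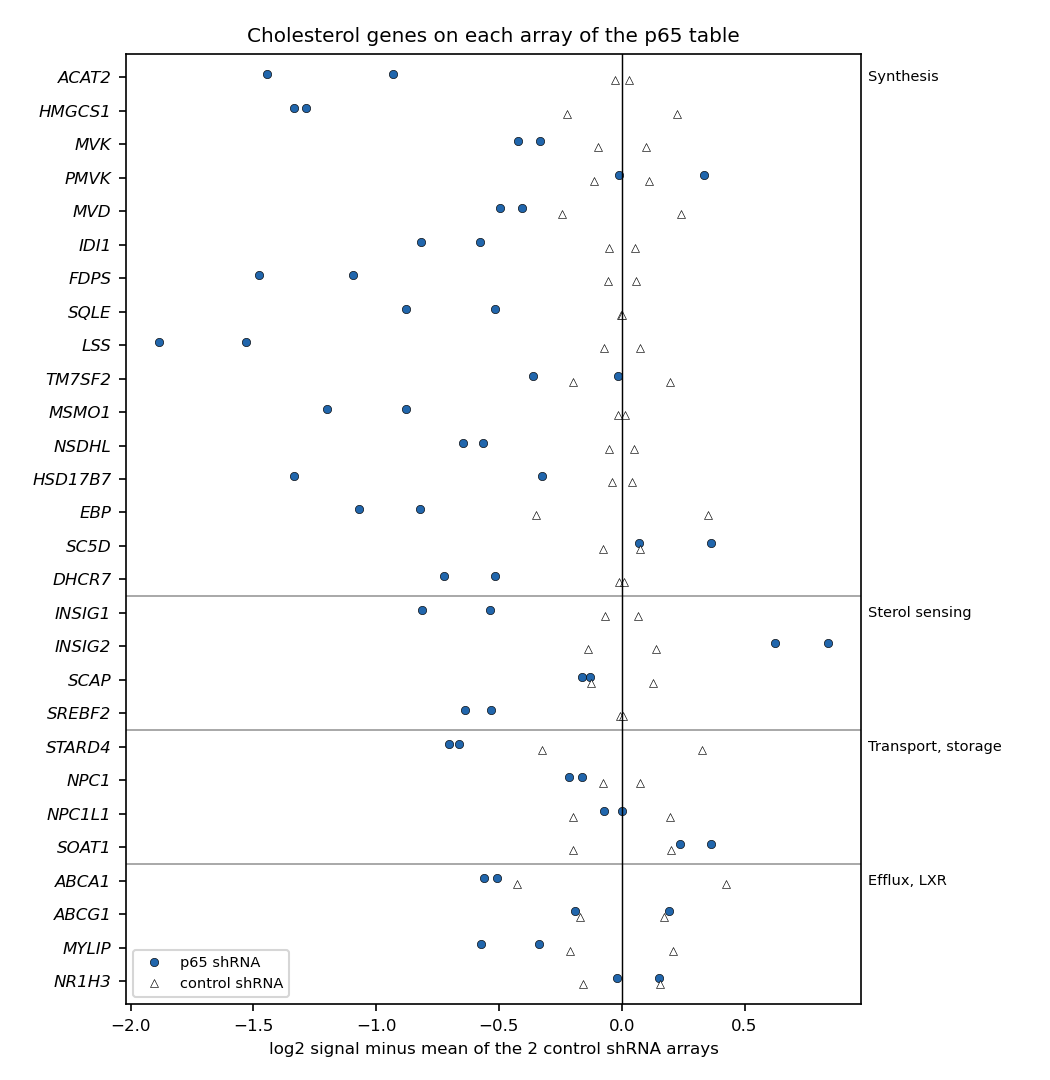
Each cholesterol gene on each array of the p65 table, as log2 signal minus the mean of the 2 control shRNA arrays, with 2 points each for p65 shRNA and control shRNA. LSS, HMGCS1, FDPS and ACAT2 lie farthest to the left with p65 shRNA, INSIG2 lies to the right, and the control arrays of ABCA1, STARD4 and EBP are far apart.

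Both tables were set side by side, since they hold no array in common as labelled. All 10 genes that were lower over both ZHX2 hairpins were also below 0 with p65 shRNA, with a median difference of -0.69. Of the 10, 9 had non-overlapping p65 table groups and 7 passed there with the intensity trend, namely HMGCS1, SQLE, LSS, MSMO1, DHCR7, INSIG1 and SREBF2. Over all 1438 genes that were lower over both ZHX2 hairpins, 48.1% were below 0 with p65 shRNA, 25.5% had non-overlapping lower groups, 3.76% passed lower with the trend, and the median p65 difference was 0.02. Genes lower in the p65 table with the trend but not lower over both ZHX2 hairpins were ACAT2, FDPS and NSDHL, and NSDHL lay at 0.09 in the ZHX2 table. INSIG2, which passed higher with p65 shRNA and the trend, differed by 0.01 in the ZHX2 table. The differences in size between the tables were not tested, because the tables were normalized separately. In the ZHX2 table RELA itself rose by 0.44 ± 0.07 (adjusted p = 0.0112), and in the p65 table ZHX2 differed by -0.09 (adjusted p = 0.861).

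**Figure D4:**
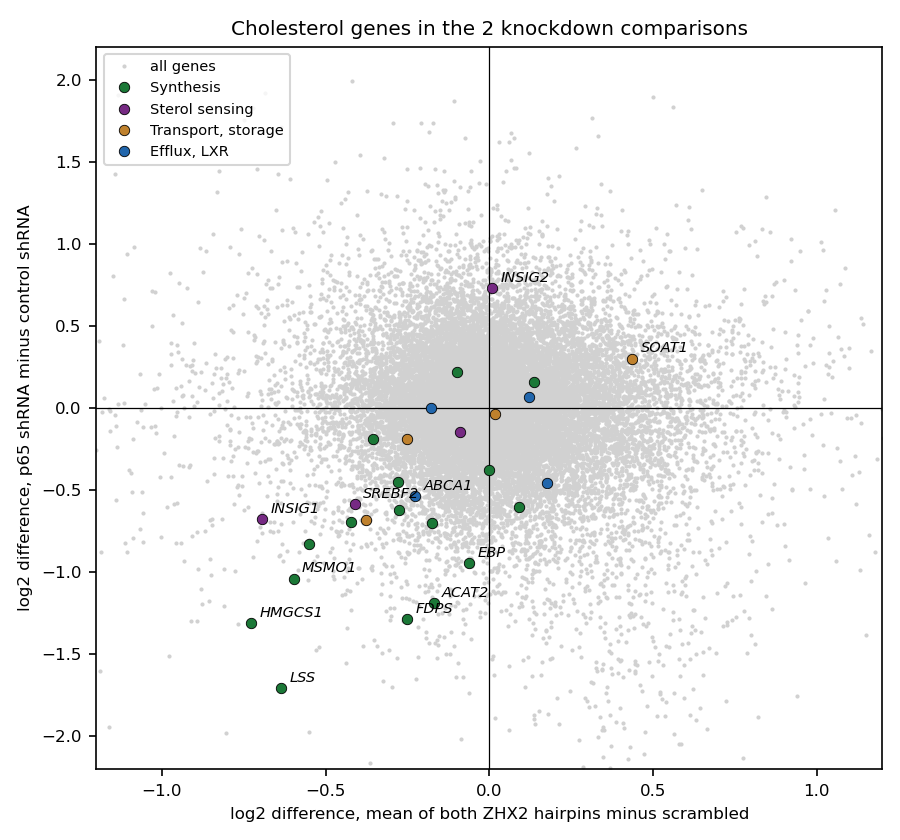
Log2 difference over both ZHX2 hairpins against scrambled (horizontal axis) and with p65 shRNA against control shRNA (vertical axis). Grey points are all genes, of which 115 lie outside the axes, and coloured points are the 28 cholesterol genes by role. HMGCS1, LSS, MSMO1, INSIG1 and SREBF2 lie in the lower left, SOAT1 in the upper right, and INSIG2 is above 0 on the vertical axis alone.

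A gene was counted as holding a motif if any of its promoter windows did. Of the 9 genes lower over both ZHX2 hairpins that had a RefSeq promoter, all 9 held a CCAAT box and all 9 a GGGCGG box. By window, 9 of 11 (81.8%) held CCAAT, compared with 34.6% of all windows, and 10 of 11 (90.9%) held GGGCGG, compared with 45.0%. Of the 8 genes with a promoter that passed lower with p65 shRNA and the trend, 8 held CCAAT and 7 held GGGCGG, and by window 8 of 10 held CCAAT. Among the other 15 genes with a promoter, 9 (60%) held CCAAT and 14 (93.3%) held GGGCGG, and by window 11 of 22 (50%) held CCAAT. These 15 include CYP51A1, which has no value here and held GGGCGG but no CCAAT. The rest were measured and lower in neither. The efflux and LXR genes with a promoter numbered 3, of which 2 held CCAAT. These shares describe small numbers of genes and were not tested.

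Neighbouring pathways were read from lists of 56 related genes, 48 of them measured. Over both ZHX2 hairpins 3 were lower and 10 were higher, with a median of 0.05, beside 6.41% of all genes lower and 11.9% higher, so the share lower was near that of all genes. The list of non-sterol isoprenoid branches held 4 of the rises among 11 measured genes and no fall, with a median of 0.20. In the same comparison 11.9% of all genes were higher. Those branches draw on the same farnesyl diphosphate, but the list also holds ACAT1 and IDI2, which do not use it and were not among the rises. PDSS1, which builds the tail of ubiquinone, had 8.01 and 8.04 with hairpin 44, and hairpin 45 gave 8.30 and 8.33, against 7.41 and 7.28 on the scrambled arrays, and rose by 0.82 ± 0.07 (adjusted p = 0.00236). DHDDS, which makes dolichol, had 9.14 and 9.22 with hairpin 44, and hairpin 45 gave 9.57 and 9.57, against 8.73 and 8.66 on the scrambled arrays, and rose by 0.68 ± 0.07 (adjusted p = 0.00316). Both rose while LSS and SQLE, on the sterol side of the branch, fell. NUS1, the partner of DHDDS, and PDSS2, the partner of PDSS1, were the other two, named after their values were seen, at 0.34 and 0.46 (adjusted p = 0.0199 and 0.0291).

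The largest rises outside those branches were in PAQR3 and NCEH1. PAQR3, a Golgi protein that tethers SCAP and SREBP, rose by 0.61 ± 0.07 (adjusted p = 0.00527), and NCEH1, a cholesteryl ester hydrolase that opposes SOAT1, rose by 0.56 ± 0.06 (adjusted p = 0.00472). The 3 related genes that fell were LRP1, a lipoprotein receptor, by 0.64 ± 0.06 (adjusted p = 0.00306), ABCA2, a lysosomal sterol transporter, by 0.60 ± 0.07 (adjusted p = 0.00539), and ABCA5, another transporter of the family, by 0.37 ± 0.10 (adjusted p = 0.0488). LRP1 had 9.56 and 9.54 with hairpin 44, and hairpin 45 gave 9.45 and 9.42, against 10.15 and 10.12 on the scrambled arrays. Its groups did not overlap. The ABCA5 probe set was dim (22.2nd percentile) and lost its call without any 1 array except scrambled replicate 1 (adjusted p up to 0.186), whereas PDSS1, DHDDS, PAQR3, NCEH1, LRP1 and ABCA2 kept theirs with any 1 array left out (adjusted p up to 0.0363).

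With p65 shRNA and the intensity trend, 3 of the 48 related genes passed lower and 2 passed higher, beside 2.49% and 1.37% of all genes. LRP1 had 7.54 and 7.6 with p65 shRNA, against 6.73 and 6.81 with control shRNA, a difference of 0.80 ± 0.17 (adjusted p = 0.146, and 0.0138 with the trend), opposite in sign to its fall with the ZHX2 hairpins. TMEM97, which regulates NPC1 and was singled out after its values were seen, had 5.16 and 5.47 with p65 shRNA, against 6.32 and 6.65 with control shRNA, a difference of -1.17 (0.0161 with the trend). In the ZHX2 table TMEM97 rose by 0.34 (adjusted p = 0.0185). The others, also named after their values were seen, were LPCAT3 at -1.22, ERLIN1 at -0.68 and NUS1 at 0.53. PDSS1 and DHDDS differed by -0.33 and 0.21 with p65 shRNA and did not pass.

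**Figure D5:**
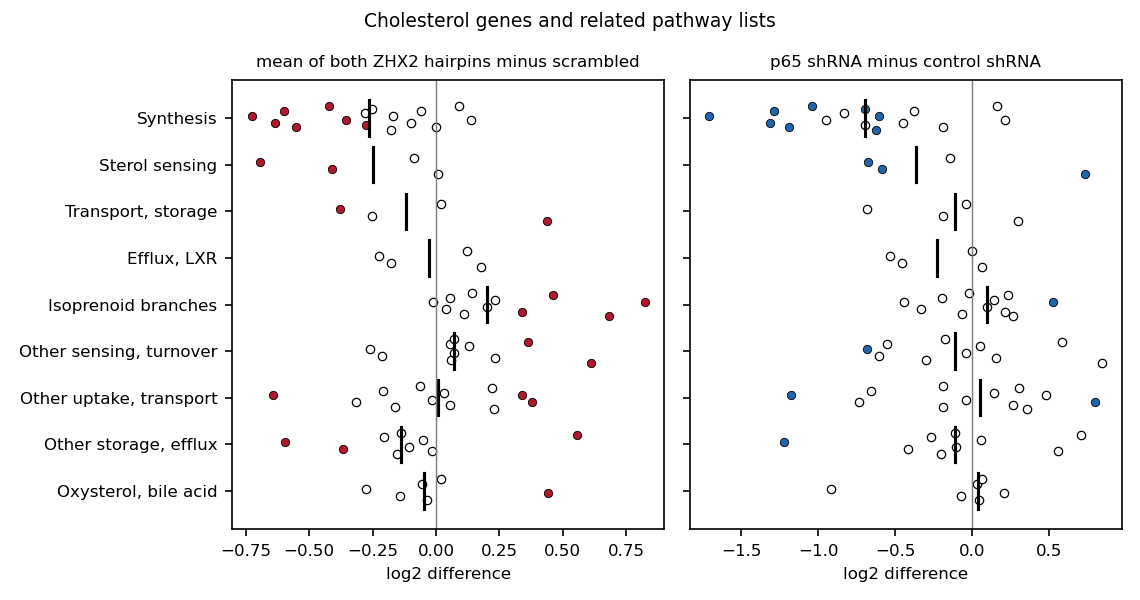
Log2 differences of the cholesterol genes by role and of the related lists, over both ZHX2 hairpins against scrambled (left) and with p65 shRNA against control shRNA (right). Each point is a gene, the vertical bar is the list median, and filled points passed at an adjusted p under 0.05 (left, plain test) or with the intensity trend (right). Synthesis lies mostly below 0 in both panels, with medians of -0.26 and -0.70. The list of isoprenoid branches, which includes ACAT1 and IDI2, has medians of 0.20 and 0.10.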

How the data were processed

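The authors deposited log2 signals made with RMA, per the submitters' processing notes, a method that corrects background, quantile-normalizes and summarises probes, so a probe set has no count depth and precision is limited by the number of arrays. Which RMA software was run, and its version, is not stated in the labels or headers. Each of the 2 tables held 53617 probe sets. The 24480 annotated to a single gene named 22432 genes, and each gene was read from its probe set of highest mean signal. Levels were not compared between tables, and between probe sets only as percentile ranks and summed signals of cell type markers.

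Groups were compared with limma 3.58.1 in R 4.3.3 (group means, eBayes, two-sided), within each table and over all genes, with Benjamini-Hochberg adjustment and a threshold of 0.05. Adjusted p-values are from this fit unless the text names an intensity trend, a second probe set or an array left out, and errors are standard errors of this fit. Tested on simulated data, the procedure recovered most changed genes with the ZHX2 table's design. With the p65 table's 4 arrays it recovered none in the plain fit and few with the trend. Recovery of differences as small as those of the cholesterol genes in the ZHX2 table was not tested. In the p65 table itself the plain fit passed 0 of all genes, RELA included, so a p65 gene that did not pass says little. Alternatives were an intensity trend, robust moderation, other scalings and probe-set choices, removal of dim probe sets (under the 40th percentile), a 1.5-fold minimum, a replicate block, and each array left out.

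The text names all cholesterol genes, both targeted genes, and the 4 largest rises and up to 4 falls among related genes that passed over both ZHX2 hairpins. The members and lists were chosen with earlier results of these data known. Promoter sequences came from RefSeq.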

Additional observations from a re-analysis of the deposited data

How the results depend on the processing

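With 2 arrays a group, counts of cholesterol genes depend on single arrays, as do counts over all genes. Where an omission leaves 1 array in a group, that array is assumed to vary like the others. No difference changed sign with a call. Over both ZHX2 hairpins 11 genes passed, and 4 with a 1.5-fold minimum. With hairpin 44, 7 passed, 4 under a replicate block, 3 with only the groups compared and 3 with a 1.5-fold minimum. With hairpin 45, 12 passed, and 4 with a 1.5-fold minimum. In each of these comparisons fewer passed with any 1 array left out, and fewer of all genes. The 1.5-fold minimum was not counted over all genes. Over all genes the plain fit gave 4102 calls over both hairpins and 4513 with hairpin 45. Between the hairpins 0 passed, 4 with an intensity trend, 1 after quantile normalization and 1 with dim probe sets removed. With p65 shRNA 0 passed and 11 did with the trend. Omitting a control shRNA array left the trend count near that and raised the trend calls over all genes. Omitting a p65 shRNA array lowered both. With the trend and an array left out, chosen after seeing the data, 10, 9, 2 and 0 passed. Over all genes, hairpin 44 gave 1716 calls, against 3940 with the trend, 3062 with dim probe sets removed, 820 with the block and 575 with only the groups compared. Hairpin 45 against hairpin 44 gave 89, against 1466, 403, 11 and 3 in that order, and p65 shRNA gave 0, against 866 with the trend. Of the calls over both hairpins 64.9% were higher, against 53.2% after quantile normalization and 73.0% after median centring. Same-numbered arrays did not deviate together (correlations of -0.03 to 0.05). These correlations cannot tell whether such arrays shared an infection or a batch. The causes were not tested.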

Other observations

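The 2 FDPS probe sets differed in the ZHX2 table and not in direction in the p65 table. The second probe set gave 0.02 with hairpin 44 and -0.16 with hairpin 45, where the first gave -0.24 and -0.26, and with p65 shRNA it gave -1.07 (adjusted p = 0.15), where the first gave -1.29. EBPL, a relative of the late synthesis enzyme EBP, was singled out after its values were seen, and rose by 0.44 over both ZHX2 hairpins, whereas EBP differed by -0.06.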
